A study of Homo sapiens with 12 samples.

Results

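The response of T24 cells to knockdown of SQLE was described from 6 samples, 3 transfected with the SQLE siRNA (siSQLE) and 3 with a control siRNA (siNC), out of 12 samples in the series. T24 is a human bladder transitional cell cancer line, labelled WT in siNC and SQLE knockdown in siSQLE. The remaining samples, 3 each with knockdown of FDPS (siFDPS) and of YY1 (siYY1), were used here only where they show what set siSQLE apart. Samples were chosen by their labels, which call the 3 samples of a group biological replicates from independent experiments, and no measured value entered the choice. Each group stands for 1 cell line under 1 siRNA condition, and neither the number of siRNAs used against SQLE nor the time of collection is given in the sources used here, so effects of an siRNA sequence and of the lower SQLE level cannot be told apart. Stranded mRNA libraries were sequenced, counts were summed for each gene, and levels are given as CPM, counts scaled to a common library total, after TMM scaling. Depth was between 48679901 and 60728086 counts in the 6 libraries.

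SQLE encodes squalene epoxidase, the membrane enzyme that turns squalene into its epoxide and so commits the product of the mevalonate pathway to cholesterol. The enzymes upstream make acetyl-CoA into mevalonate and then into isoprenoids, which also feed the prenylation of small GTPases. Genes of cholesterol synthesis and uptake are under the control of SREBP2, a transcription factor that the sterol sensor SCAP and the INSIG proteins hold in the endoplasmic reticulum while sterol is plentiful, whereas the efflux pumps ABCA1 and ABCG1 are targets of the oxysterol receptors LXR.

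SQLE, the targeted gene (ENSG00000104549, chromosome 8, 124998497 to 125022283 on the plus strand of GRCh38), stood at 125, 103 and 119 CPM in the siNC libraries and 31.2, 33.2 and 30.2 CPM in the siSQLE libraries. All siSQLE libraries lay far below all siNC libraries, and the gene fell by 1.88 on the log2 scale (SE 0.10; edgeR adjusted p = 8.19e-05), to 3.68-fold below control. FDPS, the farnesyl diphosphate synthase targeted in another group, stood at 83.2, 90.5 and 87.0 CPM in the siNC libraries and 159, 169 and 161 CPM in the siSQLE libraries and was higher in siSQLE, with a log2 fold change of 0.90 ± 0.07 (SE; edgeR adjusted p = 0.00023). YY1, a transcription factor targeted in the last group, stood at 144, 142 and 139.9 CPM in the siNC libraries and 153, 142 and 156 CPM in the siSQLE libraries, and its difference did not pass the test (edgeR adjusted p = 0.448). The cells carried keratin and mesenchymal transcripts at once: KRT7 lay between 587 and 773 CPM and VIM between 1305 and 1479 CPM in siSQLE, while the E-cadherin gene CDH1 did not exceed 0.256 CPM and the uroplakin gene UPK2 did not exceed 0.443 CPM in any of the 6 libraries.

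Against siNC, 2925 of 19004 tested genes were higher in siSQLE (15.4%) and 2819 were lower (14.8%) at an adjusted p under 0.05, and 761 and 921 of them differed by at least 2-fold. The median log2 fold change over all tested genes was -0.01. Among 13860 protein-coding genes tested, 18.5% were higher and 17.7% lower, so that a list of genes is read below against these shares. Expression correlated with r between 0.991 and 0.993 across genes within a group and between 0.977 and 0.980 between the groups, and on the second principal component, with 13.3% of the variance, siSQLE replicate 2 lay at -24.7 and the other siSQLE libraries at 12.0 and 11.7. Without siSQLE replicate 2, 5223 genes were called, and 4095 to 4552 without any other library. Levels are relative to the library, and fewer cells of a kind cannot be told apart from less RNA per cell.

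**Figure D1:**
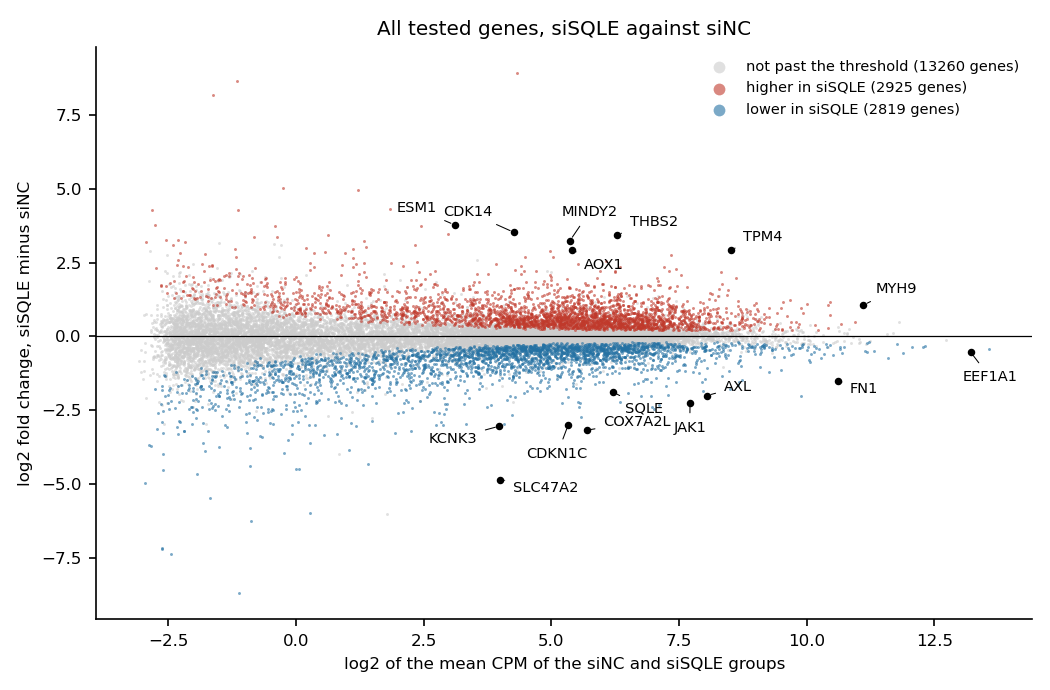
Log2 fold change of siSQLE over siNC (vertical axis) against the log2 of the mean CPM of both groups (horizontal axis) for the 19004 tested genes. Red points are the 2925 genes higher in siSQLE and blue points the 2819 lower ones. Labelled genes are described in the text; THBS2 lies at 3.44 and SLC47A2 at -4.85.

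Most mevalonate enzymes were higher in siSQLE cells. Of 12 tested enzymes, 8 were higher, 0 were lower and 4 did not pass, with a median log2 fold change of 0.63 against -0.01 over all genes. PMVK, phosphomevalonate kinase, stood at 11.4, 11.6 and 10.6 CPM in the siNC libraries and 25.04, 28.3 and 27.3 CPM in the siSQLE libraries, with a log2 fold change of 1.26 ± 0.10 (SE; edgeR adjusted p = 0.000226). MVK, the kinase of the step before it, stood at 18.6, 18.0 and 15.9 CPM in the siNC libraries and 40.2, 42.8 and 42.1 CPM in the siSQLE libraries, with 1.25 ± 0.09 (edgeR adjusted p = 0.000206). MVD, the decarboxylase that makes isopentenyl diphosphate, stood at 21.2, 22.6 and 17.9 CPM in the siNC libraries and 32.0, 46.5 and 50.4 CPM in the siSQLE libraries, with 1.06 ± 0.18 (edgeR adjusted p = 0.00525). The groups did not overlap for any of these 3 genes, although 1 siSQLE value of MVD was well under the others. ACAT2 and ACAT1, the cytosolic and mitochondrial thiolases, had log2 fold changes of 0.67 ± 0.07 and 0.60 ± 0.09, and IDI1, isopentenyl diphosphate isomerase, of 0.66 ± 0.14, and all 3 passed the test in each of the 6 fits that left out a library. HMGCS1, the synthase that makes HMG-CoA, was split: 128, 121 and 139 CPM in the siNC libraries and 158, 94.8 and 95.3 CPM in the siSQLE libraries, with 1 siSQLE library above and 2 below every control, and its log2 fold change of -0.16 ± 0.20 did not pass (edgeR adjusted p = 0.605). FDFT1, the squalene synthase immediately upstream of SQLE, was at 114, 104 and 105 CPM in the siNC libraries and 134, 115 and 124 CPM in the siSQLE libraries, with 0.20 ± 0.08 (edgeR adjusted p = 0.105). GGPS1, which makes geranylgeranyl diphosphate, spread widely within both groups (18.8, 28.3 and 44.1 CPM in the siNC libraries and 28.6, 48.0 and 43.1 CPM in the siSQLE libraries) and did not pass either. With each gene counted by its most abundant transcript alone, in place of the sum over transcripts, 4 of the enzymes were higher, and FDPS, IDI1 and MVD were no longer past the threshold.

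Downstream of SQLE, LSS, CYP51A1 and DHCR7 rose and TM7SF2 fell. Of 11 tested members, 3 rose and 2 fell, SQLE being one of the latter. LSS, the cyclase that acts on the product of SQLE to give lanosterol, stood at 148, 159.5 and 134 CPM in the siNC libraries and 358, 300.2 and 340.5 CPM in the siSQLE libraries, with a log2 fold change of 1.17 ± 0.10 (SE; edgeR adjusted p = 0.000309). CYP51A1, the lanosterol demethylase, stood at 104, 102 and 102 CPM in the siNC libraries and 137, 188 and 178 CPM in the siSQLE libraries and rose by 0.70 on the log2 scale (SE 0.12), and DHCR7, which acts at the last step to cholesterol, rose by 0.77 (SE 0.14). TM7SF2, a sterol C14 reductase, went the other way, from 13.3, 15.1 and 15.9 CPM in siNC to 6.35, 8.15 and 6.01 CPM in siSQLE, with -1.12 ± 0.15 (edgeR adjusted p = 0.00219). The TM7SF2 locus overlaps VPS51 on the same strand and that of CYP51A1 overlaps AC000120.2 and AC000120.3, and how reads shared by overlapping genes were counted is not given in the sources used here. For MSMO1, NSDHL, HSD17B7, EBP and SC5D the test was not passed, with log2 fold changes between -0.26 for MSMO1 and 0.52 for SC5D. SC5D was at 20.6 CPM in a single control library and between 56.4 and 69.9 CPM in the other 5.

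Most genes of sterol sensing and uptake did not pass the test. INSIG2, an anchor of the SREBP complex, stood at 32.7, 24.6 and 34.6 CPM in the siNC libraries and 49.1, 60.9 and 46.8 CPM in the siSQLE libraries, with a log2 fold change of 0.77 ± 0.16 (SE; edgeR adjusted p = 0.0117), and its groups did not overlap, whereas its relative INSIG1 held 25.5, 27.2 and 24.8 CPM in the siNC libraries and 25.2, 23.3 and 24.2 CPM in the siSQLE libraries and did not pass (edgeR adjusted p = 0.425). The transcription factors SREBF2 and SREBF1 had log2 fold changes of 0.23 ± 0.09 and 0.24 ± 0.14 and did not pass. MBTPS2, a protease that releases SREBP from the membrane, fell by 0.45, and MYLIP, a ubiquitin ligase under LXR, was at -0.55 ± 0.14 (edgeR adjusted p = 0.0272). Over the list of SREBP control and cholesterol uptake, 5 of 15 tested members were higher and 2 lower, with a median of 0.23. Its smaller changes rested on the number of libraries: the count of higher members was 3 without siNC replicate 2, siSQLE replicate 1 or siSQLE replicate 3, and that of lower members was 1 without siNC replicate 1, siNC replicate 2, siSQLE replicate 1 or siSQLE replicate 3, the calls lost being among those of MBTPS1, NPC2 and MYLIP.

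ABCG1, which exports cholesterol to lipoproteins, stood at 3.99, 3.51 and 3.68 CPM in the siNC libraries and 0.931, 1.28 and 1.04 CPM in the siSQLE libraries, with a log2 fold change of -1.78 ± 0.18 (SE; edgeR adjusted p = 0.00063). ABCA1, the pump that loads apolipoprotein A-I, stood at 168, 202 and 168 CPM in the siNC libraries and 113, 79.0 and 109 CPM in the siSQLE libraries, with -0.84 ± 0.15 (edgeR adjusted p = 0.00601). Both transporters were lower in every siSQLE library than in every control, and ABCG1 did not pass by its most abundant transcript alone. ABCG1 was lower still in the other knockdowns, at 0.253, 0.449 and 0.394 CPM in siFDPS and 0.264, 0.221 and 0.372 CPM in siYY1. ABCA1 was at 186, 180 and 186 CPM in siFDPS and 93.5, 88.1 and 81.0 CPM in siYY1. Its difference between siSQLE and siYY1 did not pass (edgeR adjusted p = 0.27). NR1H2, the gene of LXR beta, fell by 1.17 (SE 0.16) and LPCAT3, a phospholipid acyltransferase under LXR, by 0.54 (SE 0.10). In the same list SOAT1, which esterifies cholesterol, NCEH1, which hydrolyses the esters, and the oxysterol-binding OSBP rose, by 0.40, 0.53 and 0.67, although by its most abundant transcript NCEH1 was at -0.19 and not past the threshold. In all, 3 of 12 tested members were higher and 4 lower.

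**Figure D2:**
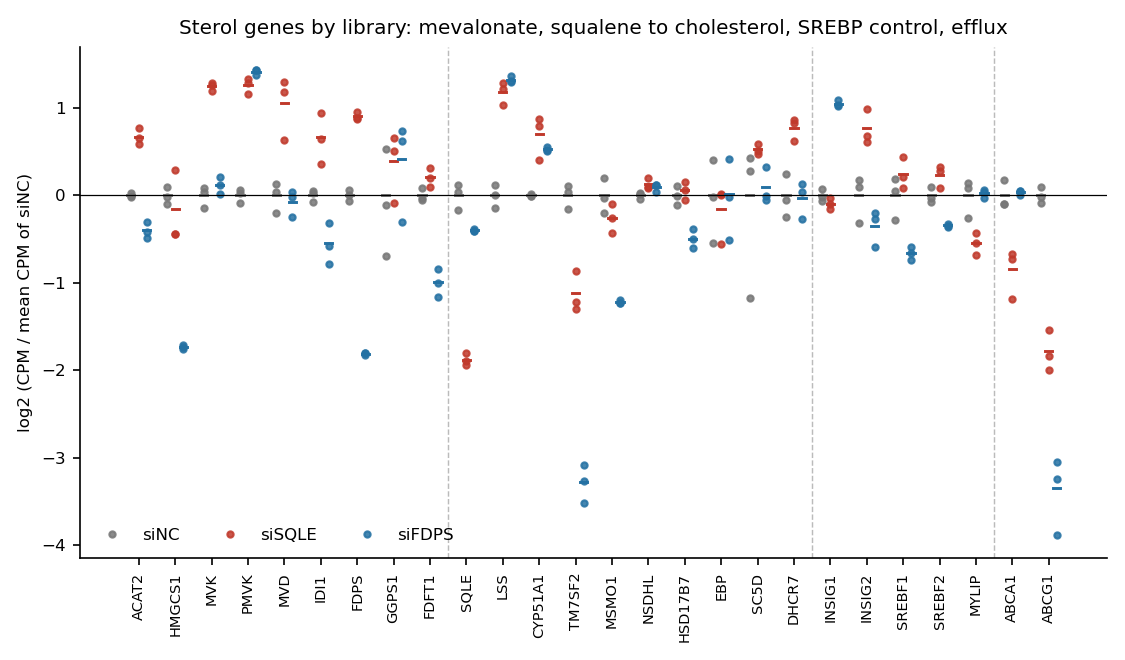
Log2 of the CPM over the mean CPM of siNC (vertical axis) for sterol genes (horizontal axis) in siNC, siSQLE and siFDPS, 1 point per library and a bar at the log2 of the group mean. Dashed lines part the mevalonate enzymes, the enzymes from squalene to cholesterol, SREBP control, and efflux. In siSQLE, MVK, PMVK and LSS lie above control and SQLE, TM7SF2, ABCA1 and ABCG1 below; the siFDPS points of HMGCS1 and FDFT1 lie below those of siSQLE.

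Against siFDPS, in which the enzyme that makes farnesyl diphosphate was the target, siSQLE cells held more of the mevalonate transcripts. Across all genes 25.7% of 18979 tested were higher in siSQLE and 24.1% lower, while of the mevalonate enzymes 10 of 12 were higher and 0 lower, with a median log2 fold change of 1.10. FDPS is one of them and was the target in siFDPS, where it stood at 24.96, 24.6 and 24.9 CPM. HMGCS1 was at 39.4, 38.9 and 38.2 CPM in siFDPS, against 94.8 CPM or more in siSQLE, a log2 fold change of 1.58 ± 0.21 (SE; edgeR adjusted p = 0.000911). FDFT1 was at 48.0, 53.8 and 60.2 CPM in siFDPS, and 1.20 ± 0.10 separated it from siSQLE (edgeR adjusted p = 0.000137). Some sterol genes did not pass the test between these groups: PMVK was at 30.2, 29.1 and 30.2 CPM and LSS at 378, 364 and 361 CPM in siFDPS, and neither differed from siSQLE past the threshold (log2 fold changes -0.15 ± 0.08 and -0.14 ± 0.08). Against siYY1, where 24.3% of 18979 genes were higher in siSQLE and 24.1% lower, 10 of 12 mevalonate enzymes were higher and 1 was lower, with a median of 0.33. Some of these enzymes were also raised in siYY1: FDPS was at 7977 to 8046 counts there, against 4191 to 5603 in siNC. MVK and PMVK likewise held more counts in every siYY1 library than in any siNC library, whereas IDI1 held fewer. The comparisons with siFDPS and siYY1 share the siSQLE libraries with the one against siNC and are not independent of it.

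The promoters of enzymes that rose together are shown because SREBP2 acts with the CCAAT-binding factor NF-Y at genes of this pathway, 4 that hold CCAAT and PMVK, which does not. Promoters were RefSeq sequences of GRCh38.p14, from 250 bases before to 50 bases after the annotated start, and the table held those of 9 of 13 mevalonate enzymes, 9 of 11 enzymes from squalene to cholesterol and 12 of 16 genes of SREBP control and uptake. Capitals mark CCAAT on either strand, so that ATTGG is its reverse complement, read from 5′ to 3′ on the strand of the gene.
MVK, chr12:109573544-109573843, plus strand: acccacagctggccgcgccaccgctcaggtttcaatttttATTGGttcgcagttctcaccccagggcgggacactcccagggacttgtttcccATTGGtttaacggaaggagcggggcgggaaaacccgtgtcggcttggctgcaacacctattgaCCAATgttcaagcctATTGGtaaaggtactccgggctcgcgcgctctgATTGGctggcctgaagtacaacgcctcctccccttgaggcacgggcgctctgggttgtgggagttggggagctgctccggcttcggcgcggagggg
MVD, chr16:88663042-88663341, minus strand: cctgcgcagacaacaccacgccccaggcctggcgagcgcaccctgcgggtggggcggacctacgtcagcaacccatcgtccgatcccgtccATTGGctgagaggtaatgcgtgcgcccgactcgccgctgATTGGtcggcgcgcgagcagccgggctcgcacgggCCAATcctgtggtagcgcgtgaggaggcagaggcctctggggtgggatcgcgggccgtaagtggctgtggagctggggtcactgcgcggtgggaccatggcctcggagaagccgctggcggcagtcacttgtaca
FDPS, chr1:155308616-155308915, plus strand: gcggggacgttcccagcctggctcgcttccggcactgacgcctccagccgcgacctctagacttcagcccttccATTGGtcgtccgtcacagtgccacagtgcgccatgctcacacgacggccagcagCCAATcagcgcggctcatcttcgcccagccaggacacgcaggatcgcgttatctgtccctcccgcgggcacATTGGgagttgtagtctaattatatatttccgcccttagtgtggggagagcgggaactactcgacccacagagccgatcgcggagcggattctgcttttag
LSS, chr21:46228725-46229024, minus strand: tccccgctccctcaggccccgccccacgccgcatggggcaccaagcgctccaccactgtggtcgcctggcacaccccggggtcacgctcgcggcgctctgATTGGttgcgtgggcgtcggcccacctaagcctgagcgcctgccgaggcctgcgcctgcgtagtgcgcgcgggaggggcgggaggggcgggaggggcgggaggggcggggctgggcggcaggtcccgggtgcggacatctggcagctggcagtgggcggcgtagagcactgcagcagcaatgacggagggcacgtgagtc
PMVK, chr1:154936670-154936969, minus strand: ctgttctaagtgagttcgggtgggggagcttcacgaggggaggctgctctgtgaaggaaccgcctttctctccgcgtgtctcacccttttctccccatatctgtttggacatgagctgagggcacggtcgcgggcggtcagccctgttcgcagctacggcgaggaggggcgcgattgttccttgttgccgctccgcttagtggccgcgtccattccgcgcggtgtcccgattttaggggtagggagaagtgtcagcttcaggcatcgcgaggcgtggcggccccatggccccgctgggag

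CCAAT was found on either strand in 5 of the 9 mevalonate promoters, in 8 of the 9 promoters of the later enzymes and in 6 of the 12 of SREBP control and uptake, and in 36.31% of 11440 promoters of tested genes and 35.7% of all 27305 promoters. Among the enzymes of both lists it was in 6 of 9 promoters of those that rose, PMVK, IDI1 and CYP51A1 holding none, and in 6 of 7 of those that did not pass the test. MVK, which rose, holds 5 matches, and HMGCS1, which did not pass, holds 2. NSDHL, with 5 matches, did not pass either. CACCCCAC, a core of the sterol regulatory element, was in 1 of these 30 promoters, that of SREBF2, and in 2.66% of promoters of tested genes. TGATGCAA, the composite element read by ATF4, was in none of the 30 and in 0.45% of promoters of tested genes. Neither of the longer motifs contains CCAAT, and a match describes letters in this window and not a bound site.

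The largest rises were in genes of varied function. THBS2, which encodes the matricellular protein thrombospondin-2, stood at 11.5, 13.8 and 14.0 CPM in the siNC libraries and 152, 135 and 142 CPM in the siSQLE libraries, with a log2 fold change of 3.44 ± 0.11 (SE; edgeR adjusted p = 2.96e-05). TPM4, a tropomyosin of actin filaments, stood at 96.6, 60.2 and 96.3 CPM in the siNC libraries and 691, 709.8 and 536 CPM in the siSQLE libraries, with 2.93 ± 0.22 (edgeR adjusted p = 0.000205). MINDY2, a deubiquitinase, stood at 8.69, 8.09 and 6.76 CPM in the siNC libraries and 74.8, 78.7 and 70.4 CPM in the siSQLE libraries, with 3.24 ± 0.12. In each of these genes the lowest siSQLE library was several times the highest control. PDE1C, a cyclic nucleotide phosphodiesterase, and AOX1, aldehyde oxidase, rose by 3.73 and 2.93. ESM1, an endothelial proteoglycan gene (0.913, 1.16 and 1.43 CPM in the siNC libraries and 17.4, 14.6 and 16.2 CPM in the siSQLE libraries), and CDK14, a cyclin-dependent kinase (2.80, 2.94 and 3.47 CPM in the siNC libraries and 37.9, 34.6 and 33.9 CPM in the siSQLE libraries), rose by 3.78 and 3.52, and both overlap other genes on the same strand. TPM4 was at 44480 to 49004 counts in siFDPS and 35503 to 37671 in siYY1, against 3726 to 4999 in siNC. CDK14 was at 1777 to 2016 counts in siFDPS and 1829 to 2115 in siYY1, against 141 to 182 in siNC. For AOX1, ESM1, THBS2 and PDE1C too, every siFDPS and siYY1 library held more counts than any siNC library. THBS2, MINDY2 and PDE1C were higher in siSQLE than in siNC, siFDPS and siYY1. BIVM-ERCC5, a readthrough of BIVM and ERCC5, had the largest value, 8.92, but its siSQLE libraries spread over 0.399, 72.8 and 46.8 CPM and its siFDPS libraries over 44.0, 1.52 and 38.0 CPM, its reads cannot be told apart from those of the 2 genes it spans, and its call was lost without siNC replicate 1 (edgeR adjusted p = 0.0627) or siNC replicate 2 (0.063).

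Among the largest falls, SLC47A2, a cation and proton exchanger, stood at 24.4, 35.2 and 33.4 CPM in the siNC libraries and 0.482, 1.22 and 1.54 CPM in the siSQLE libraries, with a log2 fold change of -4.85 ± 0.40 (SE; edgeR adjusted p = 0.000308). COX7A2L, which joins respiratory complexes into supercomplexes, stood at 134, 68.7 and 76.6 CPM in the siNC libraries and 11.3, 12.6 and 6.91 CPM in the siSQLE libraries, with -3.18 ± 0.34 (edgeR adjusted p = 0.000735). CDKN1C, the gene of the cell cycle inhibitor p57, stood at 79.4, 70.7 and 64.5 CPM in the siNC libraries and 6.10, 8.22 and 12.7 CPM in the siSQLE libraries, with -3.00 ± 0.26 (edgeR adjusted p = 0.00037). The groups were far apart in all 3. KCNK3, a potassium channel, CYP4F11, a cytochrome P450 of fatty acid hydroxylation, and SH3BGRL2 fell by 3.04, 3.21 and 3.02, and EVI2B and SLC12A8, which overlap other genes on the same strand, by 3.29 and 2.99. SLC47A2 was also at 5 to 10 counts in siFDPS and 124 to 160 in siYY1, against 1232 to 2178 in siNC. CDKN1C was at 731 to 930 counts in siFDPS and 88 to 119 in siYY1, against 3347 to 4378 in siNC. For KCNK3, CYP4F11, SH3BGRL2, EVI2B and SLC12A8 too, every siFDPS and siYY1 library held fewer counts than any siNC library. COX7A2L, SH3BGRL2, CYP4F11 and EVI2B were lower in siSQLE than in siNC, siFDPS and siYY1.

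**Figure D3:**
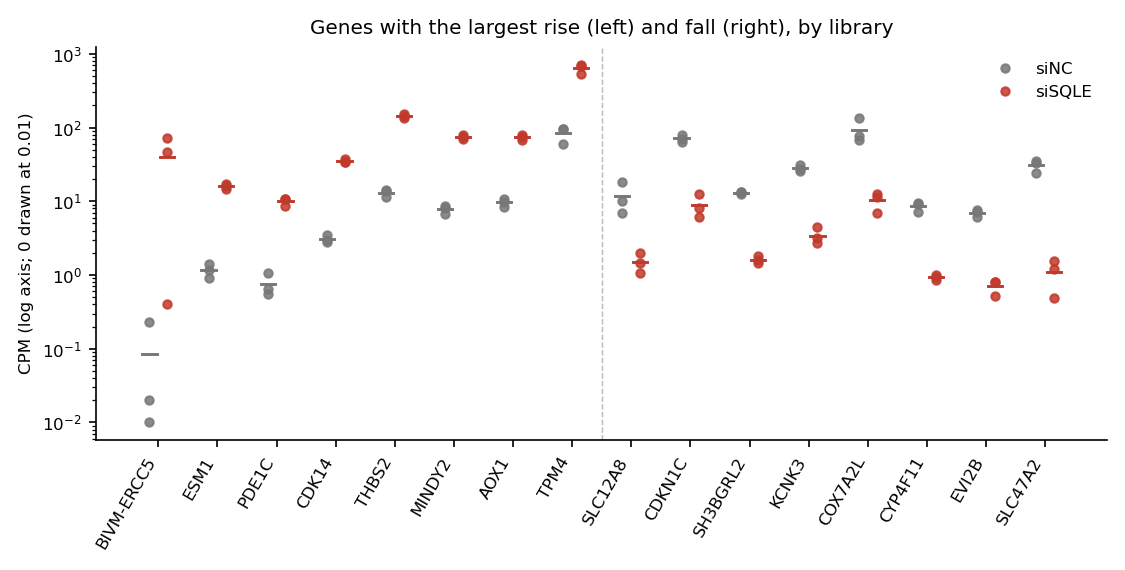
CPM on a log axis (vertical) of the 8 genes with the largest rise and the 8 with the largest fall in siSQLE against siNC (horizontal axis), 1 point per library and a bar at the group mean; a value of 0 is drawn at 0.01. The groups do not overlap in any gene because the rule that chose the genes required it. BIVM-ERCC5 has 1 siSQLE library at 0.399 CPM near the controls.

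Among the genes that gained most CPM were those of a motor and an actin-binding protein. MYH9, the heavy chain of non-muscle myosin IIA, stood at 1389, 1571 and 1333 CPM in the siNC libraries and 3210, 2666 and 3116 CPM in the siSQLE libraries, with a log2 fold change of 1.06 ± 0.10 (SE; edgeR adjusted p = 0.000464). TMSB10, an actin-monomer binding peptide, rose by 0.71, and so did the chaperone gene HSP90AA1 (by 1.06) and DCBLD2, a transmembrane receptor gene (by 1.16). The 5 genes that lost most CPM were EEF1A1, the translation elongation factor (10539, 11204 and 11859 CPM in the siNC libraries and 7745, 8016 and 7513 CPM in the siSQLE libraries), the ferritin heavy chain FTH1 (-0.73), fibronectin FN1, and MT-CO1 and MT-RNR2 of the mitochondrial genome (-0.41 and -0.55).

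Genes of the extracellular matrix rose in large number. Of 39 tested collagens, laminins and matricellular proteins, 19 were higher and 3 lower, with a median log2 fold change of 0.43. Besides THBS2, the transmembrane collagen gene COL13A1 stood at 7.08, 8.43 and 6.995 CPM in the siNC libraries and 56.1, 53.3 and 57.6 CPM in the siSQLE libraries, with 2.88 ± 0.11 (SE; edgeR adjusted p = 3.48e-05). COL5A2, of the fibrillar collagen V, stood at 145, 152 and 140.4 CPM in the siNC libraries and 536, 474 and 488 CPM in the siSQLE libraries, with 1.77 ± 0.08 (edgeR adjusted p = 4.18e-05), and THBS1, thrombospondin-1, stood at 35.8, 38.3 and 33.4 CPM in the siNC libraries and 120.2, 102 and 124 CPM in the siSQLE libraries, with 1.68 ± 0.10 (edgeR adjusted p = 0.00012). Control and knockdown libraries were far apart for each. The 3 that fell were fibronectin, FN1, at 2045, 2743 and 2104 CPM in the siNC libraries and 896, 686 and 865 CPM in the siSQLE libraries, with -1.50 ± 0.15 (edgeR adjusted p = 0.000611); COL7A1, the anchoring fibril collagen, at -1.45 ± 0.08; and LAMB3, a chain of laminin-332, at -0.33 ± 0.06. Against siFDPS, 23 of 39 of these genes were higher in siSQLE and 7 lower, beside 25.7% and 24.1% of all genes tested there.

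Most markers of fibroblasts and smooth muscle were too low to test, and some of those tested were higher. Of 9 such markers, 4 were tested and 2 were higher, TAGLN, the actin-binding transgelin (4.70, 4.77 and 5.94 CPM in the siNC libraries and 21.7, 22.03 and 22.5 CPM in the siSQLE libraries), and PDGFRB (5.66, 5.72 and 5.90 CPM in the siNC libraries and 13.2, 11.2 and 12.1 CPM in the siSQLE libraries), and none was lower. Their summed level was between 11.9 and 13.1 CPM in siNC and between 34.8 and 36.4 CPM in siSQLE. TAGLN was also at 731 to 960 counts in siFDPS and 1131 to 1232 in siYY1, against 237 to 308 in siNC. PDGFRB was at 97 to 116 counts in siFDPS and 152 to 205 in siYY1, against 285 to 354 in siNC. The defining fibroblast markers DCN and LUM did not exceed 0.201 CPM in any library. Of 6 endothelial markers 2 were tested, and CDH5, VE-cadherin, was higher (0.437, 0.695 and 0.289 CPM in the siNC libraries and 3.96, 5.30 and 4.37 CPM in the siSQLE libraries), while PECAM1 and VWF did not exceed 0.615 CPM, and the sum of the 6 was between 1.06 and 1.79 CPM in siNC and between 4.71 and 6.39 CPM in siSQLE. Of 9 immune markers 4 were tested and CD14 was higher (1.09 ± 0.13), with CD3D and CD3E at 0 counts in all 6 libraries, and the sum was between 7.78 and 9.84 CPM in siNC and between 12.8 and 16.2 CPM in siSQLE. The part of such cells in the results was not tested.

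Receptors and proteases of the matrix did not move as a body. ITGB3, integrin beta-3, stood at 71.6, 85.6 and 69.7 CPM in the siNC libraries and 16.8, 14.9 and 16.6 CPM in the siSQLE libraries, with a log2 fold change of -2.24 ± 0.11 (SE; edgeR adjusted p = 6.84e-05), and its locus overlaps AC068234.1 on the same strand. ITGB1, the beta-1 subunit, stood at 1035, 1052 and 1007 CPM in the siNC libraries and 1027, 1066 and 1044 CPM in the siSQLE libraries, with 0.01 ± 0.06 (edgeR adjusted p = 0.881). Over the integrins, 4 of 22 tested subunits were higher and 3 lower, with a median of 0.16, beside 18.5% and 17.7% of protein-coding genes. The higher ones were the laminin receptor subunits ITGA6 (0.88 ± 0.20) and ITGB4 (0.46 ± 0.13), ITGB5 (0.25 ± 0.06) and ITGA9 (1.84 ± 0.57). ITGA9 held only 6, 3 and 6 counts in the siNC libraries and 17, 30 and 10 in the siSQLE libraries. Its call was lost without any one library except siSQLE replicate 3. The count of higher subunits was 0 without siNC replicate 1 and 1 without siNC replicate 2, siNC replicate 3 or siSQLE replicate 1 and 2 without siSQLE replicate 3, and it was 0 by the most abundant transcript of each gene. Of the proteases and their inhibitors, 8 of 28 were higher and 6 lower, with a median of 0.07. F3, tissue factor, the starter of coagulation, stood at 67.9, 69.2 and 74.8 CPM in the siNC libraries and 289, 319.7 and 289.9 CPM in the siSQLE libraries, with 2.08 ± 0.08 (edgeR adjusted p = 3.56e-05). Every siFDPS and siYY1 library also held more F3 counts, and fewer ITGB3 counts, than any siNC library. The plasminogen activators PLAT and PLAU fell by 1.00 and 0.38. SERPINE2, a serine protease inhibitor, rose by 1.66, and TIMP3, an inhibitor of metalloproteinases, by 1.13.

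Small GTPases of the RHOB family and the prenylation enzymes split evenly, 8 of 27 tested members being higher and 8 lower, with a median of -0.17. RHOB, an endosomal small GTPase, stood at 104, 92.8 and 96.3 CPM in the siNC libraries and 44.0, 54.1 and 46.5 CPM in the siSQLE libraries, with a log2 fold change of -1.02 ± 0.10 (SE; edgeR adjusted p = 0.000576). CDC42, which drives filopodia, fell by 0.70. RAC1, which drives lamellipodia, stood at 169, 163 and 182 CPM in the siNC libraries and 416, 495 and 423 CPM in the siSQLE libraries, with 1.37 ± 0.09 (edgeR adjusted p = 0.000155), and RHOC rose by 0.93. Of the prenylation machinery, FNTB, the beta chain of farnesyltransferase, fell by 1.20 and ICMT, which methylates the prenylated cysteine, rose by 0.98. Of these, FNTB, CDC42 and RHOC overlap other genes on the same strand. The count of lower members was 4 without siNC replicate 1, siNC replicate 3 or siSQLE replicate 1 and 5 without siSQLE replicate 3. Against siFDPS, RHOB, RAC1 and RHOC had log2 fold changes of 0.17 ± 0.10, 0.02 ± 0.08 and 0.07 ± 0.08, with edgeR adjusted p of 0.21, 0.868 and 0.453.

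More cell cycle genes were higher than lower in siSQLE. Of 40 tested genes of mitosis and the kinetochore 20 were higher and 4 lower, with a median log2 fold change of 0.37, and of 40 replication genes 12 were higher and 1 was lower, with a median of 0.21. MYBL2, a transcription factor of the G2 programme, stood at 35.1, 35.01 and 33.3 CPM in the siNC libraries and 81.9, 69.2 and 79.1 CPM in the siSQLE libraries, with 1.15 ± 0.09 (SE; edgeR adjusted p = 0.000222). CDC25B, the phosphatase that activates CDK1, rose by 0.76, the kinetochore gene SPC25 by 0.93, the replication helicase gene CDC45 by 0.90 and RRM1, of ribonucleotide reductase, by 0.69. The mitotic genes that fell were MKI67, MAD2L1, ANLN and CCNA2, the last being cyclin A2, with log2 fold changes between -0.74 and -0.41. These were 2 without siNC replicate 1, siSQLE replicate 2 or siSQLE replicate 3, and MCM6, the lower replication gene, kept its call in 1 of the 6 fits without a library: it was lost without each of the 6 except siNC replicate 2.

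Of 31 tested p53 targets, cyclin-dependent kinase inhibitors and apoptosis genes, 13 were lower and 6 higher, with a median of -0.26. CDKN1A, the gene of the inhibitor p21, stood at 96.5, 82.5 and 73.2 CPM in the siNC libraries and 33.8, 35.6 and 31.4 CPM in the siSQLE libraries, with a log2 fold change of -1.33 ± 0.12 (SE; edgeR adjusted p = 0.000386). TP53INP1, a p53-induced nuclear protein, stood at 63.3, 64.2 and 66.0 CPM in the siNC libraries and 14.7, 16.7 and 15.7 CPM in the siSQLE libraries, with -2.04 ± 0.08 (edgeR adjusted p = 4.04e-05). As for CDKN1C, described above, every siSQLE library lay below every control. For CDKN1A and TP53INP1 every siFDPS and siYY1 library also held fewer counts than any siNC library. The inhibitor genes CDKN2B and CDKN2C rose by 0.71 and 0.46, the latter named after its value was seen. PLK2, a kinase of the same list, fell by 0.70. BCL2L1, the gene of the survival protein BCL-xL, was the leading riser, at 94.7, 88.9 and 91.8 CPM in the siNC libraries and 230.4, 219 and 229 CPM in the siSQLE libraries, with 1.30 ± 0.06 (edgeR adjusted p = 6.84e-05), and the nucleotide excision repair gene XPC rose by 0.97. Against siYY1, 29 of 40 mitotic genes were lower in siSQLE and 3 higher, and against siFDPS 31 were higher and 1 lower. Of all genes tested, 24.1% were lower and 24.3% higher against siYY1, and 25.7% were higher and 24.1% lower against siFDPS.

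Genes of the endoplasmic reticulum stress response were called mostly upwards, by small steps. Of 30 tested genes of the ATF4 and unfolded protein responses 15 were higher and 5 lower, with a median of 0.28. TRIB3, a pseudokinase induced by ATF4, stood at 27.2, 22.1 and 18.9 CPM in the siNC libraries and 53.8, 55.0 and 69.5 CPM in the siSQLE libraries, with a log2 fold change of 1.38 ± 0.16 (SE; edgeR adjusted p = 0.00107). PPP1R15A, the GADD34 phosphatase subunit that restores translation, stood at 32.2, 37.2 and 30.6 CPM in the siNC libraries and 73.8, 76.7 and 79.9 CPM in the siSQLE libraries, with 1.20 ± 0.09 (edgeR adjusted p = 0.00026). HYOU1, a chaperone, and EDEM1, which delivers misfolded glycoproteins for degradation, rose by 0.69 and 0.51. The list did not move in one direction: ERN1, the stress sensor IRE1, fell by 1.05, the co-chaperone DNAJB9 by 0.87 and CHAC1, a glutathione-degrading target of ATF4, by 0.74. The count of lower members was 3 without siNC replicate 1, siNC replicate 2, siSQLE replicate 1 or siSQLE replicate 3. Of the serine, one-carbon and amino acid transport genes 3 of 26 were higher and 4 lower, no more than the shares of 18.5% and 17.7% of protein-coding genes. ASNS and PHGDH, which make asparagine and start serine synthesis, had 0.29 ± 0.16 and 0.32 ± 0.12 and did not pass, while the cationic amino acid carrier SLC7A1 fell by 1.18 and the glutamine carrier SLC38A1 rose by 0.67.

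Of 39 interferon-stimulated genes, 25 did not pass the test against siNC, 6 were higher and 8 lower, with a median of -0.14. These counts are near the shares of all tested genes, 15.4% and 14.8%, and the count of higher genes was 3 without siNC replicate 1 and 2 without siNC replicate 2. IFIT2, an RNA-binding effector, stood at 183, 182 and 212 CPM in the siNC libraries and 70.6, 83.2 and 64.8 CPM in the siSQLE libraries, with a log2 fold change of -1.41 ± 0.12 (SE; edgeR adjusted p = 0.000318), and IRF1, a transcription factor of the response, fell by 1.07. OAS3, an RNA sensor, and BST2, tetherin, rose by 0.56 and 0.52. JAK1, the kinase beneath the interferon receptors, stood at 353, 356 and 333 CPM in the siNC libraries and 74.3, 73.1 and 71.5 CPM in the siSQLE libraries, with -2.26 ± 0.07 (edgeR adjusted p = 2.96e-05). Of all genes tested, 25.7% were higher and 24.1% lower in siSQLE than in siFDPS, and 24.3% and 24.1% than in siYY1. Against these knockdowns most interferon-stimulated genes were higher: 30 of 39 were higher in siSQLE than in siFDPS and 3 lower, and 32 of 39 were higher than in siYY1 and 1 was lower. OASL, for example, was at 35.1, 36.1 and 28.6 CPM in siSQLE, 4.92, 5.35 and 5.14 CPM in siFDPS and 11.9, 15.3 and 14.8 CPM in siYY1, against 50.4, 50.8 and 48.3 CPM in siNC.

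Of 28 tested genes of NF-kB signalling, cytokines and chemokines, 17 did not pass the test, 6 were higher and 5 lower, near the shares of 18.5% and 17.7% of protein-coding genes. CXCL1, a neutrophil chemokine, stood at 60.7, 54.2 and 60.3 CPM in the siNC libraries and 187, 235 and 218 CPM in the siSQLE libraries, with a log2 fold change of 1.86 ± 0.10 (SE; edgeR adjusted p = 9.32e-05), and IL1A and CSF3, encoding interleukin-1 alpha and G-CSF, rose by 1.30 and 1.15. CSF2, encoding GM-CSF, and IL6 fell by 1.53 and 0.49, and BIRC3, an NF-kB target that restrains cell death, stood at 62.6, 60.9 and 70.2 CPM in the siNC libraries and 19.7, 23.1 and 21.5 CPM in the siSQLE libraries, with -1.60 ± 0.10 (edgeR adjusted p = 0.000124). The lower genes of this list were 3 without siNC replicate 1, siNC replicate 3, siSQLE replicate 1 or siSQLE replicate 3. Among immediate early factors and feedback genes of the MAPK cascade, 10 of 30 were higher and 5 lower, and the lower ones were 3 without siNC replicate 1. FOSL1, an AP-1 subunit, stood at 255, 198 and 240.5 CPM in the siNC libraries and 67.9, 71.6 and 75.8 CPM in the siSQLE libraries, with -1.69 ± 0.11 (edgeR adjusted p = 0.000125), whereas the EGF receptor ligands EREG and HBEGF rose by 1.61 and 0.97. The receptor gene EGFR itself, in the urothelial list, fell, at 1296, 1521 and 1211 CPM in the siNC libraries and 854, 648 and 824 CPM in the siSQLE libraries.

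Targets of YAP and TGF-beta divided as well, 10 of 32 tested being higher and 10 lower, with a median of -0.14. AXL, a receptor tyrosine kinase, stood at 436, 438 and 398 CPM in the siNC libraries and 111, 96.1 and 111 CPM in the siSQLE libraries, with a log2 fold change of -2.01 ± 0.08 (SE; edgeR adjusted p = 4.18e-05). SMAD3 and SMAD4, which carry the TGF-beta signal to the nucleus, fell by 0.91 and 0.84. CCN2 and ANKRD1, which YAP activates in many cells, rose, CCN2 from 25.1, 23.2 and 27.9 CPM to 54.9, 59.0 and 56.2 CPM (1.15 ± 0.09; edgeR adjusted p = 0.000264) and ANKRD1 by 2.11, with TEAD4, a partner of YAP on DNA, by 1.17, and LATS2, the kinase that restrains YAP, by 1.11. The count of lower members was 6 without siNC replicate 2 or siNC replicate 3 and 5 without siSQLE replicate 1.

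Of 29 tested genes of oxidative stress defence and ferroptosis 11 were lower and 2 higher, with a median of -0.18. SRXN1, which encodes sulfiredoxin, stood at 143, 138 and 132 CPM in the siNC libraries and 62.6, 66.3 and 63.3 CPM in the siSQLE libraries, with a log2 fold change of -1.11 ± 0.07 (SE; edgeR adjusted p = 0.000124). GCLM, a subunit of the enzyme that limits glutathione synthesis, and AKR1C1, an aldo-keto reductase, fell by 1.09 and 1.10. The 2 that rose were metallothioneins, MT1E (1.25) and MT2A (0.94). SLC7A11, the cystine carrier counted with the amino acid genes, fell by 0.45. GCLM was higher in siSQLE than in siFDPS, by 1.14 ± 0.07 (edgeR adjusted p = 3.94e-05).

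Glycolysis and hypoxia genes were called in both directions, 12 of 35 being higher and 11 lower, with a median of -0.03, and the lower ones were 7 without siSQLE replicate 1 or siSQLE replicate 3. HK2, the inducible hexokinase, stood at 52.7, 57.5 and 54.7 CPM in the siNC libraries and 146, 119 and 139 CPM in the siSQLE libraries, with a log2 fold change of 1.29 ± 0.09 (SE; edgeR adjusted p = 0.000209). SLC2A1, the glucose transporter GLUT1, stood at 160.3, 172 and 152 CPM in the siNC libraries and 80.4, 69.5 and 72.4 CPM in the siSQLE libraries, with -1.13 ± 0.09 (edgeR adjusted p = 0.000233). The 2 hypoxia-inducible factor genes diverged, EPAS1 rising by 1.20 and HIF1A falling by 0.60, and VEGFA, the angiogenic growth factor, fell by 1.16. Of the fatty acid genes, 3 of 20 were higher, among them ME1, malic enzyme (1.02), and 3 lower, among them ACACB, acetyl-CoA carboxylase 2 (-1.19), with a median of 0.04. Both counts were near the shares of 15.4% and 14.8% of all tested genes. ELOVL6, with a log2 fold change of 0.24 ± 0.07, lost its call in each of the 6 fits without 1 library, and ELOVL5, with -0.25 ± 0.07, lost its call without siNC replicate 1, siNC replicate 3, siSQLE replicate 1 or siSQLE replicate 3.

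Many ribosomal protein transcripts were lower by small amounts. Of 77 tested, 35 were lower and 2 higher, with a median log2 fold change of -0.29. RPL30 stood at 885, 946 and 986 CPM in the siNC libraries and 575, 623 and 528 CPM in the siSQLE libraries, with -0.71 ± 0.09 (SE; edgeR adjusted p = 0.00122), and RPL3 and RPL10 fell by 0.57 and 0.52, while RPL11, which binds MDM2, and RPS26 rose by 0.62 and 0.59. Reads of ribosomal protein genes can also match their pseudogenes. The count of lower genes was 19 without siNC replicate 2 and 13 without siNC replicate 3 or siSQLE replicate 3 and 14 without siSQLE replicate 1. Of 13 genes of the mitochondrial genome 8 were lower and 0 higher, with a median of -0.26, and the count was 4 without siNC replicate 1, siNC replicate 2, siNC replicate 3 or siSQLE replicate 3 and 3 without siSQLE replicate 1. The mitochondrial share of counts was between 3.68% and 3.92% in siSQLE and between 4.83% and 4.90% in siNC. Its part in these counts was not tested.

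Genes set apart in siSQLE from every other group were sought among 18177 genes tested in all 3 comparisons. Of these, 899 (4.95%) were higher in siSQLE than in siNC, siFDPS and siYY1, and 750 (4.13%) were lower than in all of them. JAK1 stood at 74.3, 73.1 and 71.5 CPM in siSQLE, 353, 356 and 333 CPM in siNC, 381, 389 and 387 CPM in siFDPS and 343, 342 and 344 CPM in siYY1, and its log2 fold changes were -2.26 ± 0.07, -2.40 ± 0.05 and -2.22 ± 0.05 against siNC, siFDPS and siYY1. Its siSQLE libraries were the lowest of the 12. PTGES3, the co-chaperone p23, was at 37.6, 37.3 and 44.6 CPM in siSQLE, 201, 166 and 292 CPM in siNC, 155, 151 and 151 CPM in siFDPS and 223, 210.3 and 227 CPM in siYY1. APOO, a subunit of the complex that shapes mitochondrial cristae, was at 2.74, 2.45 and 2.31 CPM in siSQLE, 10.4, 8.53 and 10.2 CPM in siNC, 8.87, 8.21 and 9.17 CPM in siFDPS and 10.3, 10.3 and 8.65 CPM in siYY1. COX7A2L, DHRS4L2 and TCEAL1 completed the 6 lower genes named, and both DHRS4L2 and TCEAL1 overlap other genes on the same strand.

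On the higher side, THBS2 was at 152, 135 and 142 CPM in siSQLE, 11.5, 13.8 and 14.0 CPM in siNC, 18.2, 19.0 and 17.8 CPM in siFDPS and 21.6, 20.9 and 19.6 CPM in siYY1. CSPG4, the proteoglycan NG2, was at 62.5, 41.6 and 66.4 CPM in siSQLE, 8.45, 9.95 and 7.90 CPM in siNC, 13.8, 13.0 and 11.6 CPM in siFDPS and 3.12, 3.94 and 3.12 CPM in siYY1. NOG, the gene of noggin, which binds bone morphogenetic proteins, was at 28.9, 46.0 and 42.4 CPM in siSQLE, 12.2, 11.6 and 12.6 CPM in siNC, 10.2, 8.64 and 8.03 CPM in siFDPS and 6.41, 5.16 and 5.64 CPM in siYY1, while BMP4, one of its ligands, was lower in siSQLE than in siNC (-2.01 ± 0.31; edgeR adjusted p = 0.00353). APLN, the peptide apelin, and MINDY2 were higher by at least 1.82 and 2.5 on the log2 scale in each of the 3 comparisons. C15orf38-AP3S2, a readthrough, also met the rule, but its siSQLE libraries were at 1.45, 29.9 and 12.1 CPM, the first within the range of siNC, and the call against siNC was lost without any one library except siSQLE replicate 1.

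**Figure D4:**
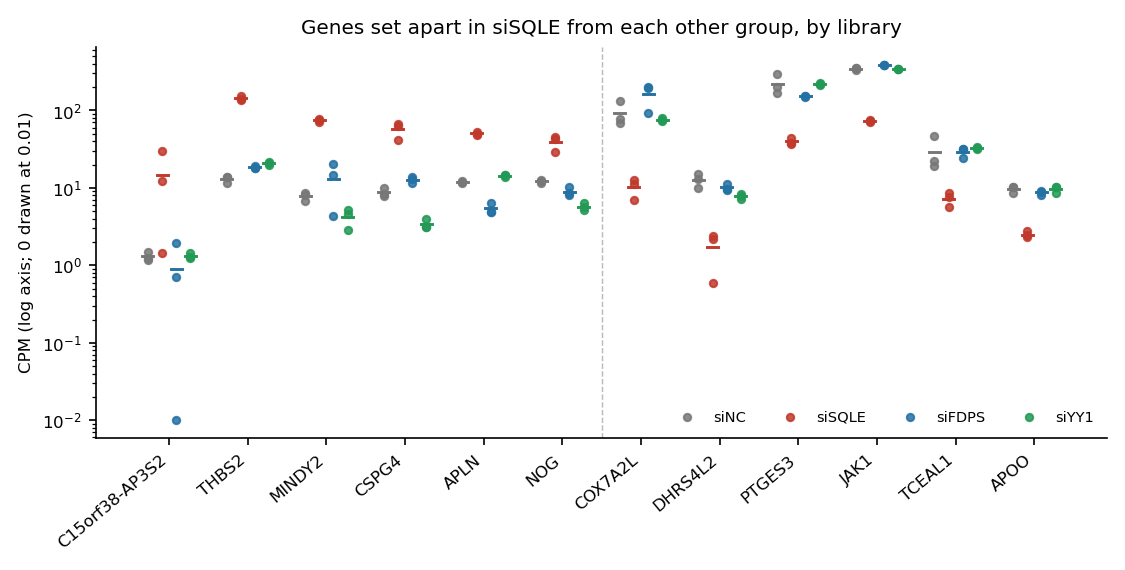
CPM on a log axis (vertical) of 6 genes higher (left) and 6 lower (right) in siSQLE than in siNC, siFDPS and siYY1 (horizontal axis), 1 point per library and a bar at the group mean; a value of 0 is drawn at 0.01. JAK1 lies between 71.5 and 74.3 CPM in siSQLE. C15orf38-AP3S2 has 1 siSQLE library among the controls.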

How the data were processed

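RNA of 12 samples of T24 cells was sequenced from stranded mRNA libraries whose molecules carry an identifier of 8 bases. The authors deposited 1 table of counts per transcript, as whole numbers with no normalization. The submitters' processing notes name Trimmomatic 0.36, STAR 2.5.3, featureCounts, Subread 1.5.1 and GRCh38. Whether strand and identifiers were used in counting, and how reads were divided among transcripts of a gene, is not given in the sources used here.

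Counts of 206601 transcripts were summed into 58735 genes by gene identifier. Genes were kept by filterByExpr, scaled by TMM and fitted in edgeR 4.0.16 (R 4.3.3), whose quasi-likelihood test was run on the 6 libraries compared. Adjusted p-values (Benjamini-Hochberg) cover every gene tested, at a threshold of 0.05. Positive log2 fold changes are higher in siSQLE. Over the 12 libraries depth ran from 48679901 counts in siNC replicate 1 to 62168745 in siYY1 replicate 1. Where siFDPS and siYY1 are given in counts, these are not scaled for depth. Intervals are SEs of the fit. The fit was tested on simulated counts with 200 changed genes among 18489. It called 57.7% of the 2-fold and 96.9% of the 4-fold changes, with 7 false calls. DESeq2, an alternative named below, called 80.8% and 99.0% of them, with 61 false calls. In the data 5744 of 19004 genes were called, a far larger share than was changed in the simulation. The simulated rates are therefore not those of the comparison. A gene that did not pass can still differ. Named genes were SQLE, FDPS and YY1, every gene of the mevalonate, squalene to cholesterol, SREBP and study lists, the 8 largest rises and falls among called protein-coding genes whose groups did not overlap and whose mean count reached 200, the 5 largest rises and falls in CPM, up to 4 genes per direction of each other list with the smallest adjusted p, and 6 genes per direction set apart from every group. CD3D, CD3E, CDKN2C, DCN, KRT7, LUM, PECAM1, UPK2 and VWF were named outside this rule, after their values were seen. The members and lists were chosen with earlier results of these data known. Of the named genes, ASNS, BIVM-ERCC5, C15orf38-AP3S2, CDC42, CDK14, COL7A1, CYP51A1, DHRS4L2, ESM1, EVI2B, FNTB, GGPS1, HIF1A, IFIT2, ITGB3, LAMB3, MBTPS2, NPC2, RHOC, RPL10, RPL3, SLC12A8, SLC2A1, SMAD4, SRXN1, TCEAL1, TM7SF2 and YY1 overlap another annotated gene on the same strand and are uncertain to that extent. Values of some genes of these lists are not reported here.

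Alternatives were DESeq2 1.42.0 with its size factors, upper-quartile scaling, 2 other filters, a fit of all 12 libraries, the most abundant transcript of each gene, a threshold of 2-fold, the replicate number as a block, and leaving out each library.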

Additional observations from a re-analysis of the deposited data

How the results depend on the processing

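Against siNC, 5744 genes were past the threshold, 2523 by the most abundant transcript of each gene, 1682 with a change of at least 2-fold, and between 4095 and 5223 without 1 library. DESeq2 called 3208 higher and 3087 lower. Without a filter on low counts 2303 and 2263 were called, with at least 1 CPM 2830 and 2743, with upper-quartile scaling 2505 and 3256, and in a fit of all 12 libraries 3556 and 3381. Leaving out 1 library gave between 7837 and 9251 genes against siFDPS (9440 with all) and between 7709 and 9206 against siYY1 (9194 with all). Of the list members 370 were called, 196 by the most abundant transcript, 94 with at least 2-fold, and between 280 and 372 without 1 library. SQLE stayed between -1.96 and -1.82 without 1 library.

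Replicate numbers were shared across groups, but same-numbered samples did not deviate together (correlations between -0.184 and -0.0921 for siSQLE and siNC). With the replicate block 3525 genes were past the threshold against siNC, and 996 in place of 1649 in the same direction against siNC, siFDPS and siYY1.

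Direction turned, with no value past the threshold under the alternative, for EBP (0.15), FDFT1 (-0.13), NCEH1 (-0.19), NSDHL (-0.23), SCARB1 (-0.044) and VIM (0.60) by the most abundant transcript, and for HSD17B7 (-0.0011), ITGB1 (-0.040) and STARD4 (-0.019) with upper-quartile scaling. NCEH1 and VIM were past the threshold in the opposite direction by summed counts. Over the fits without 1 library both signs were found for EBP (-0.37 to 0.095), HSD17B7 (-0.0019 to 0.11), ITGB1 (-0.0044 to 0.028), PSME3 (-0.0043 to 0.67), SCAP (-0.011 to 0.12) and STARD4 (-0.029 to 0.11), none of which had passed with all libraries. Gene counts by transcript rest on how reads were divided among transcripts, and the cause of these changes was not tested.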

Other observations

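More lysosomal genes were higher than lower in siSQLE. Of 53 tested lysosomal and V-ATPase genes 19 were higher and 9 lower, with a median log2 fold change of 0.18. PPT1, which removes palmitate from proteins, stood at 70.0, 61.1 and 55.7 CPM in the siNC libraries and 193, 232 and 205 CPM in the siSQLE libraries, with 1.75 ± 0.11 (SE; edgeR adjusted p = 0.000138). LAMP1, the abundant lysosomal membrane protein, and the proton pump subunit ATP6V1F rose by 0.75 and 0.84, whereas the pump subunit ATP6V0E1 and the protease CTSS fell by 1.08 and 1.39. Against siFDPS the same list was lower in siSQLE for 34 of 54 genes and higher for 9, beside 24.1% and 25.7% of all genes tested there.

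Simple keratins rose: KRT8 stood at 508, 499 and 441 CPM in the siNC libraries and 908, 938 and 1015 CPM in the siSQLE libraries, with 0.98 ± 0.08 (SE; edgeR adjusted p = 0.000294), and its partner KRT18 rose by 0.84. In the urothelial and keratin list 7 of 18 were higher and 3 lower, among the higher ones PPARG, a regulator of luminal urothelium (0.86), and among the lower ones GATA3 (-0.86 ± 0.25), whose call was lost without any library except siSQLE replicate 2. Of 16 genes of epithelial-mesenchymal transition 1 was higher, the tight junction gene OCLN (1.29), and 5 lower, among them VIM, at -0.41 ± 0.07, which was at 0.60 and not past the threshold by its most abundant transcript. In the last list 2 without siSQLE replicate 2 were higher and 3 without siSQLE replicate 3 lower, CLDN1 among the lost calls. CDH2, N-cadherin, was at 0.07 ± 0.06 and did not pass (edgeR adjusted p = 0.397).

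Genes of small RNA processing differed as well. DICER1 stood at 145, 149 and 156 CPM in the siNC libraries and 63.8, 61.4 and 69.1 CPM in the siSQLE libraries, with -1.22 ± 0.07 (SE; edgeR adjusted p = 0.000115), and DROSHA stood at 39.1, 38.7 and 38.2 CPM in the siNC libraries and 80.4, 75.4 and 76.9 CPM in the siSQLE libraries, with 1.00 ± 0.07 (edgeR adjusted p = 0.000158). Over the list 3 of 12 genes were higher and 4 lower, beside 18.5% and 17.7% of protein-coding genes. The count of higher ones was 1 without siNC replicate 1, siNC replicate 3, siSQLE replicate 1 or siSQLE replicate 3. Of 17 tested genes that the study discusses, 2 were higher and 5 lower, beside the same shares of protein-coding genes.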
